A study of Drosophila melanogaster with 24 samples.

Results

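The JAK/STAT pathway was followed through 7 genes that encode its core in Drosophila: the ligand genes os, upd2 and upd3, the receptor gene dome, the Janus kinase gene hop, the transcription factor gene Stat92E and the feedback inhibitor gene Socs36E. They were found in the deposited table by gene symbol, where they account for 7 of 14042 genes and 10 of 17769 measured transcripts. os is the older name of the gene that RefSeq lists as upd1. Stat92E was measured as 3 transcripts, Socs36E as 2 and each of the other 5 genes as 1. RefSeq places os, upd2, upd3, dome and hop on chromosome X, Stat92E on chromosome arm 3R and Socs36E on arm 2L. On X, no protein-coding gene lies between upd3 and os and 1 lies between upd2 and upd3.

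RNA was extracted from whole embryos and measured on custom two-colour microarrays at 0-1.5, 1.5-3, 3-4.5 and 4.5-6 h post-egglaying. The brat mutant embryos came from females of the genotype bratfs1/Df(2L)TE37C-7, in which 1 copy of brat carries the fs1 missense change in the NHL domain and the other is removed by a deficiency. Embryos of w1118 flies were the wild type, and each of the 8 genotype and time groups had 3 biological replicates, 24 samples in all. The genotype is that of the mother: the fathers of the brat mutant embryos were mostly bratfs1/CyO or Df(2L)TE37C-7/CyO, so that an embryo could carry a CyO chromosome with a brat+ copy, and single embryos were not genotyped.

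In this pathway an Unpaired ligand, the product of os, upd2 or upd3, binds the receptor Domeless on a neighbouring cell. The kinase Hopscotch is then activated and phosphorylates Stat92E, which moves to the nucleus and switches on target genes. One of these targets is Socs36E, whose product dampens the signal. In the fly embryo, hop and Stat92E are loaded into the egg by the mother, os is switched on from the zygotic genome in the blastoderm, and the pathway acts in segmentation and in sex determination. BRAT (Brain Tumor) is an RNA-binding protein of the TRIM-NHL family that represses mRNAs supplied by the mother. The study reports that it also promotes their decay, both early and later, when factors made by the embryo's own genome take part. The comparisons below ask how the RNA of each pathway gene is loaded, cleared or switched on, and whether this differed in brat mutants.

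All values are log2 array values, averaged over the transcripts of a gene. Across samples the median of all transcripts lay between 8.7 and 8.83 and the mean between 9.54 and 9.58, and a transcript was taken as expressed where it exceeded the sample mean in at least 1 group (limma, FDR under 5%). By this rule 4 of the 7 genes, dome, hop, Stat92E and Socs36E, were tested among 5811 expressed genes, while os, upd2 and upd3 were not. Their values are given below as levels, with a test only from a fit over all 14042 genes without that rule. brat RNA itself was present in both genotypes, at 13.29 in brat mutants and 13.96 in w1118 at 0-1.5 h. The difference of -0.67 did not pass in the fit over all genes (limma, adjusted p = 0.121), and at 1.5-3 h it was 0.11. The missense allele need not change brat RNA, while the deficiency removes 1 copy from the mother. As the difference passed at no time point, brat RNA does not check the labels. Replicates within a group correlated at 0.928 to 0.968.

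Lists of stage and tissue markers differed between the genotypes. The mean of 5 muscle genes (Mhc, Mlc2, Mlc1, wupA, up) was 8.67, 9.85, 10.54 and 10.95 in brat mutants over the 4 time points, against 8.33, 8.95, 8.92 and 9.01 in w1118, with all 5 expressed in brat mutants at 3-4.5 h (samples between 9.89 and 11.28) and none in w1118 (8.24 to 9.68). The mean of 4 maternal mRNAs (bcd, nos, osk, gcl) was 13.16, 11.83, 10.5 and 10.53 in brat mutants and 13.29, 11.84, 9.68 and 9.87 in w1118. The mean of 5 blastoderm genes (eve, ftz, sna, twi, kni) was 9.52 in brat mutants and 8.81 in w1118 at 0-1.5 h, and at the later times 11.45, 10.91 and 9.98 in brat mutants and 11.9, 11.29 and 10.52 in w1118. Not every gene went with its list mean. kni at 0-1.5 h and nos at 3-4.5 h were lower in brat mutants, as were nos and gcl at 4.5-6 h. Against their list means, bcd and osk were higher in brat mutants at 0-1.5 h and 1.5-3 h. So were sna and twi at 1.5-3 h, ftz at 3-4.5 h and eve at 4.5-6 h. The 5 eggshell genes (Cp15, Cp16, Cp18, Cp36, Vm26Aa) averaged 8.07 to 8.18 in every group and none was expressed. The part of these differences in the results on the pathway genes was not tested. Nor can fewer cells of a type and less RNA per cell be told apart in whole embryos.

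Ranks within the array were taken among all transcripts and averaged over the transcripts of a gene. Stat92E was at the 92.5th to 97th percentile over the 8 groups, hop at the 80.7th to 90th and dome at the 79.3rd to 89.5th. Socs36E was at the 44.7th percentile in brat mutants and the 30th in w1118 at 0-1.5 h and between 72.1 and 76.3 in every later group. The ligand genes upd2 and upd3 stayed below the 40th percentile in every group, and os reached its highest percentile, 62.5, in w1118 at 3-4.5 h. Array values of different probes are not a measure of relative RNA amount, and these ranks do not order the genes by abundance.

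**Figure D1:**
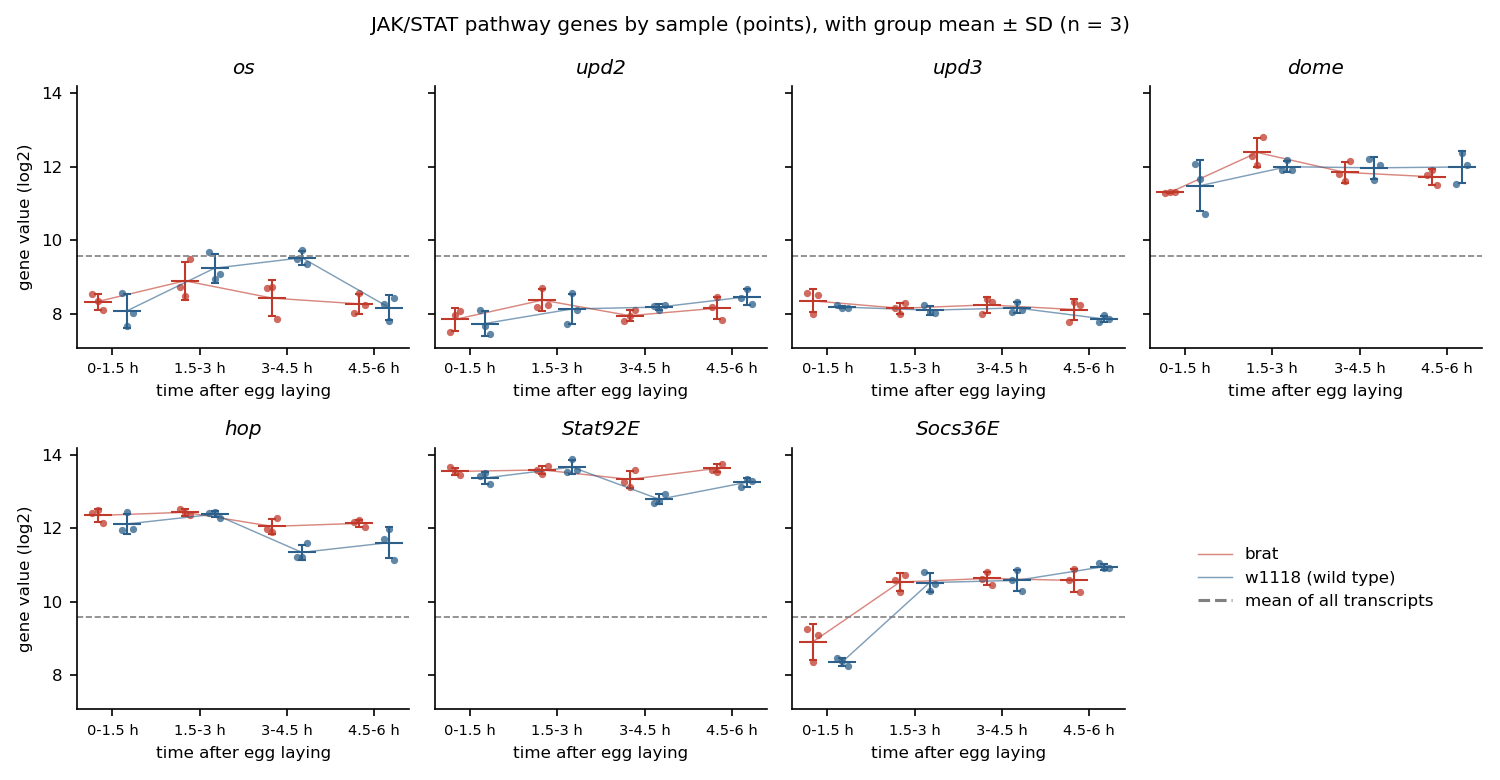
Gene values (log2 array value, y axis) of the 7 pathway genes against time after egg laying (x axis) in brat mutants (red, left) and w1118 (blue, right). Points are samples, horizontal marks and bars the group mean ± SD (n = 3), and the dashed line the mean of all transcripts (9.58, the highest of the sample means); Stat92E, hop and dome lie above it in all groups and os, upd2 and upd3 have group means below it in all groups.

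Among the ligand genes, os was the one that passed a test over time, and it did so in w1118. At 3-4.5 h os had values of 8.7, 8.73 and 7.86 in the brat mutant samples, against 9.48, 9.73 and 9.37 in the w1118 samples. All 3 brat mutant samples lay below all 3 w1118 samples at this time. For a single gene, such a separation of 3 against 3 samples has an exact permutation p of 0.1. The share of all genes separated in this way was not counted, so that non-overlap here and below is only a description. The group means were 8.43 ± 0.49 in brat mutants and 9.53 ± 0.18 in w1118 (SD, n = 3 each), a difference of -1.09 (SE 0.28, 95% interval -1.71 to -0.48), which did not pass the threshold in the fit over all genes (limma, adjusted p = 0.108). At the other time points the groups overlapped. os values at 1.5-3 h were 8.73, 8.49 and 9.48 in brat mutants and 9.69, 8.96 and 9.08 in w1118, so that 1 brat mutant sample was within the wild-type range.

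Over time, os rose in w1118 between 0-1.5 h and 1.5-3 h, to 9.24 ± 0.40 at the later time, against 8.09 ± 0.46 at the earlier (SD, n = 3 each; difference 1.15, SE 0.29, adjusted p = 0.00492, where 6.9% of all 14042 genes were called higher). It stayed at that level at 3-4.5 h and fell by 1.35 to 8.17 ± 0.33 at 4.5-6 h (SE 0.29, adjusted p = 0.00706, where 1.29% of all genes were called lower). In brat mutants the corresponding steps were 0.56 (adjusted p = 0.251) and -0.16 (adjusted p = 0.934), and the step between 1.5-3 h and 3-4.5 h was -0.47 (adjusted p = 0.459). No os step passed in brat mutants. The difference of the last step between the genotypes, 1.19 (SE 0.41), did not pass either (adjusted p = 0.585). In order of its group means, os was highest in w1118 at 3-4.5 h and lowest in w1118 at 0-1.5 h, and each group overlapped the next lower one.

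The other ligand genes stayed near the lower end of the array. upd2 had its lowest group mean, 7.74 ± 0.33, in w1118 at 0-1.5 h and its highest, 8.47 ± 0.21, in w1118 at 4.5-6 h, a span of 0.73. upd3 spanned 0.49, with a highest mean of 8.36 ± 0.31 in brat mutants at 0-1.5 h and a lowest of 7.86 ± 0.09 in w1118 at 4.5-6 h (SD, n = 3 each). Neighbouring groups overlapped in every case except that all upd3 values of w1118 at 4.5-6 h (7.78 to 7.96) lay below those of w1118 at 1.5-3 h (8.02 to 8.24). The genotype difference of upd2 ranged between -0.31 and 0.24 over the 4 time points and that of upd3 between 0.05 and 0.25, and none passed the threshold in the fit over all genes (lowest adjusted p = 0.529).

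dome encodes the cytokine receptor of the pathway, to which the Unpaired ligands bind. It rose in brat mutants between the first 2 time points, where its values were 12.29, 12.06 and 12.81 at 1.5-3 h and 11.29, 11.31 and 11.31 at 0-1.5 h. The increase was 1.09 (SE 0.28, adjusted p = 0.00435), or 2.12-fold. In w1118 dome had values of 11.91, 12.18 and 11.91 at 1.5-3 h and 12.07, 11.66 and 10.72 at 0-1.5 h, a difference of 0.52 (SE 0.28) that did not pass (adjusted p = 0.137). The wild-type samples at 0-1.5 h were spread over more than 1 log2 unit, and without w1118 replicate 1 at that time the step was 0.81 and passed (adjusted p = 0.0289). The difference between the steps of the genotypes was 0.57 (SE 0.40, adjusted p = 0.587).

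No later change of dome passed the test. Its group means from 1.5-3 h onward were 12.39 ± 0.38, 11.85 ± 0.28 and 11.73 ± 0.21 in brat mutants and 12 ± 0.16, 11.97 ± 0.31 and 11.99 ± 0.43 in w1118 (SD, n = 3 each), and neither later step passed in either genotype (adjusted p = 0.195 and 0.919 in brat mutants, 0.94 and 0.972 in w1118). The genotypes overlapped at every time point. Their difference was -0.18, 0.39, -0.12 and -0.26 from the first to the last time point, with adjusted p between 0.342 and 0.794, and the 95% interval at 4.5-6 h ran from -0.81 to 0.29.

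hop encodes the only Janus kinase of the fly. It was high from the start, with 12.40, 12.49 and 12.15 in brat mutants at 0-1.5 h and 11.94, 12.43 and 11.98 in w1118, and it had nearly the same level in both genotypes at 1.5-3 h (12.43 ± 0.09 in brat mutants and 12.38 ± 0.08 in w1118; SD, n = 3 each). In w1118 hop then fell by 1.03 to 11.23, 11.21 and 11.59 at 3-4.5 h, a level 2.05-fold lower than at 1.5-3 h (SE 0.19, adjusted p = 1.63e-04). In brat mutants it had 11.98, 11.90 and 12.27 at 3-4.5 h, -0.38 relative to 1.5-3 h (SE 0.19), and this step did not pass (adjusted p = 0.182). All 3 brat mutant samples at 3-4.5 h lay above all 3 wild-type samples.

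The genotype difference of hop at 3-4.5 h was 0.71 (SE 0.20, 95% interval 0.24 to 1.17), or 1.63-fold, with an adjusted p of 0.0916. It did not pass in the fit of the 6 samples of this time point. It passed when all 24 samples shared 1 estimate of the spread (adjusted p = 0.0174, where 7.98% of expressed genes were called higher) and with SAM (Significance Analysis of Microarrays, the test named in the study's methods, where 5.78% were called higher). At 4.5-6 h hop had 12.16, 12.21 and 12.03 in brat mutants against 11.72, 11.97 and 11.14 in w1118. The groups again did not overlap, and the difference of 0.52 (SE 0.23) did not pass (adjusted p = 0.169). It was 0.29 without w1118 replicate 3 and 0.70 without w1118 replicate 2, and did not pass either way (adjusted p = 0.393 and 0.112).

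Stat92E, which encodes the transcription factor of the pathway, had a profile like that of hop. It began at 13.65, 13.54 and 13.44 in brat mutants and 13.41, 13.49 and 13.19 in w1118, and at 1.5-3 h it was 13.58 ± 0.11 in brat mutants and 13.66 ± 0.18 in w1118 (SD, n = 3 each). Between 1.5-3 h and 3-4.5 h it fell by 0.87 in w1118, or 1.83-fold (SE 0.15, adjusted p = 9.48e-05). In brat mutants the same step was -0.26 (SE 0.15, adjusted p = 0.271). Its values at 3-4.5 h were 13.26, 13.13 and 13.59 in brat mutants, against 12.69, 12.73 and 12.94 in w1118. Again the 2 groups did not overlap.

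The genotype difference of Stat92E at 3-4.5 h was 0.54 (SE 0.20, 95% interval 0.08 to 0.99), with an adjusted p of 0.157. It passed when all 24 samples were fitted together (adjusted p = 0.0224) and not with SAM. At 4.5-6 h Stat92E had 13.59, 13.54 and 13.75 in brat mutants and 13.11, 13.35 and 13.28 in w1118, without overlap, a difference of 0.38 (SE 0.17, adjusted p = 0.168). Wild-type Stat92E was by then 0.46 above its level at 3-4.5 h (SE 0.15), a step that did not pass (adjusted p = 0.0618). In the order of group means, w1118 at 3-4.5 h was the lowest for both hop and Stat92E. For Stat92E it was separated from the next group, w1118 at 4.5-6 h, and for hop it overlapped with it.

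Whether the steps themselves differed between the genotypes was tested as an interaction. From 1.5-3 h to 3-4.5 h the step of hop was 0.65 more positive in brat mutants than in w1118 (SE 0.27, adjusted p = 0.167) and that of Stat92E 0.62 more positive (SE 0.22, adjusted p = 0.101). Neither passed, so that a fall called in w1118 and not in brat mutants is not shown to differ between them. For this step 2.77% of expressed genes had a more positive change in brat mutants and 2.82% a more negative one. The mean of the maternal marker list was also higher in brat mutants at 3-4.5 h (10.5 against 9.68 in w1118), as given above. Of its genes, bcd (11.3 against 9.8), osk (10.7 against 9.2) and gcl (11.9 against 11.4) were higher in brat mutants. nos was lower (8.1 against 8.3).

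Socs36E, the inhibitor gene that the pathway itself induces, changed most over time in both genotypes. At 0-1.5 h it was at 9.26, 8.36 and 9.11 in brat mutants and 8.47, 8.39 and 8.25 in w1118, below the mean of all transcripts. At 1.5-3 h it had 10.60, 10.27 and 10.74 in brat mutants and 10.80, 10.29 and 10.48 in w1118. Every sample at 1.5-3 h lay above every sample of its genotype at 0-1.5 h. The gene rose by 1.63 in brat mutants (3.09-fold, SE 0.22, adjusted p = 8.6e-06) and by 2.15 in w1118 (4.44-fold, SE 0.22, adjusted p = 9.81e-08). The difference between these steps, -0.52 (SE 0.31), did not pass (adjusted p = 0.515). Socs36E met the expression rule in neither group at 0-1.5 h and in every later group, so that the rises are not independent of it. Both rises passed in each alternative, also without the rule (limma, highest adjusted p = 0.00149 in brat mutants and 3.17e-05 in w1118).

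The genotype difference of Socs36E was positive at the start and negative at the end. At 0-1.5 h it was 0.54 (SE 0.24, adjusted p = 0.197), with brat mutant replicate 2 inside the wild-type range, and without that sample the difference was 0.81 and passed (adjusted p = 0.0254). The mean of the blastoderm marker list was higher in brat mutants at this time (9.52 against 8.81 in w1118). Of its genes, sna (11.0 against 9.2) and twi (10.7 against 9.6) differed most, and ftz (9.2 against 8.7) and eve (8.5 against 8.2) less. kni was slightly lower in brat mutants (8.24 against 8.34). At 1.5-3 h and 3-4.5 h the differences were 0.01 and 0.06. At 4.5-6 h Socs36E had 10.59, 10.88 and 10.27 in brat mutants against 11.05, 10.91 and 10.91 in w1118, without overlap, and the difference of -0.38 (SE 0.20) did not pass (adjusted p = 0.235). It was -0.22 without brat mutant replicate 3, and the transcript means differed for PA (11.19 in brat mutants and 11.93 in w1118) and hardly for PB (9.96 in brat mutants and 9.98 in w1118). The wild type at 4.5-6 h was the highest group for Socs36E and was separated from all others, and the 2 groups at 0-1.5 h were separated from all later ones.

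In counts, none of the 4 tested pathway genes differed between brat mutants and w1118 at any time point by limma at an FDR of 5%. The background was 4.97% of expressed genes higher and 3.94% lower in brat mutants at 0-1.5 h, 4.15% and 3.55% at 1.5-3 h, 2.17% and 1.48% at 3-4.5 h, and 6.3% and 5.68% at 4.5-6 h. The median difference of the 4 genes was 0.20, 0.03, 0.30 and 0.06, beside -0.03, -0.04, -0.05 and -0.09 over all expressed genes. With 4 genes tested, a share near the background is less than 1 gene. Among RNAs higher in brat mutants and grouped as largely maternal, the study reports enrichment of the annotation term Jak-STAT signaling. It used SAM and its own set of expressed transcripts, and counts of 4 genes do not test an enrichment.

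**Figure D2:**
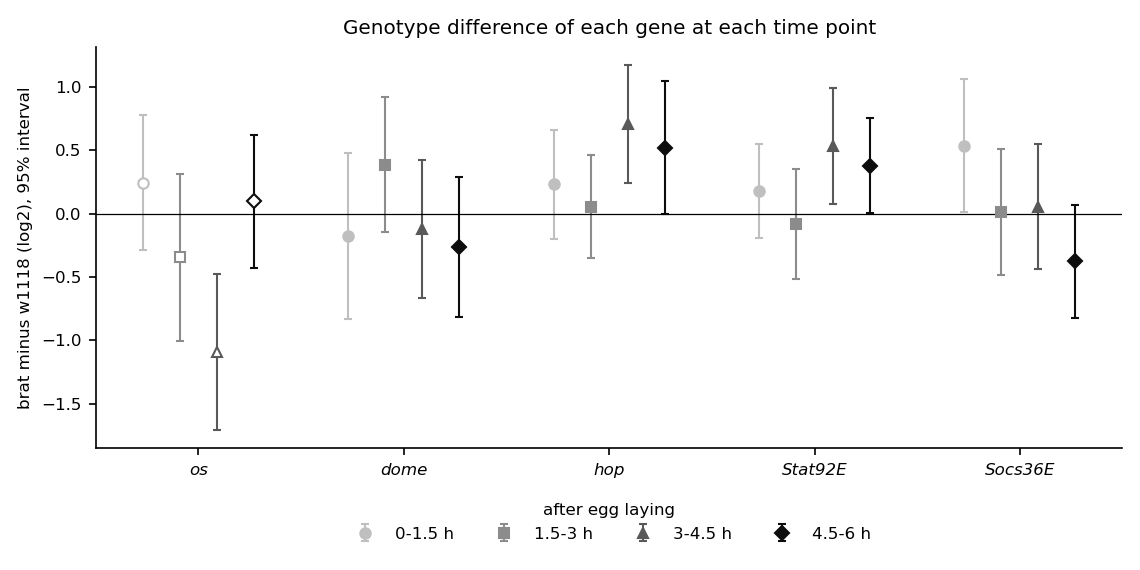
Difference brat minus w1118 (log2, y axis) with its 95% interval for os, dome, hop, Stat92E and Socs36E, with the 4 time points from light to dark. Filled symbols come from the fit over expressed genes and open ones (os) from the fit over all genes; none passed an FDR of 5%, and the differences farthest from 0 were at 3-4.5 h, -1.09 for os and 0.71 for hop.

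Over time, 2 of the 4 genes rose in brat mutants at the first step (dome and Socs36E) and 1 in w1118 (Socs36E), and 2 fell in w1118 at the second step (hop and Stat92E). At the first step 13.9% of expressed genes rose and 20.8% fell in brat mutants, and 19.5% rose and 25.7% fell in w1118. At the second, 6.04% rose and 9.22% fell in brat mutants, and 21.8% rose and 25% fell in w1118. No pathway gene was called at the last step, where 0.533% rose and 0.637% fell in brat mutants and 5.9% rose and 4.22% fell in w1118. Neighbouring steps share the samples of the time point between them. In the interactions 0.688% of expressed genes had a more positive and 0.774% a more negative step in brat mutants at the first step, and 0% and 0.0172% at the last, and no pathway gene was called.

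**Figure D3:**
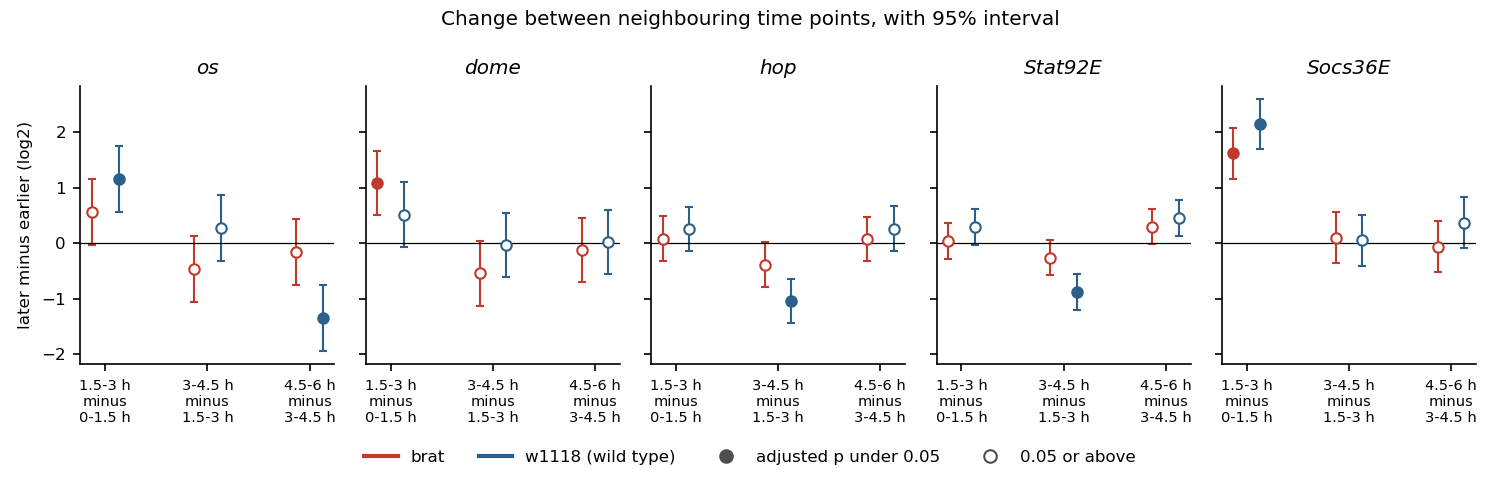
Change between neighbouring time points (log2, later minus earlier, y axis) with its 95% interval in brat mutants (red, left) and w1118 (blue, right), with filled symbols where the adjusted p was under 0.05. The falls of hop (1.03) and Stat92E (0.87) at the second step in w1118 and the rises of Socs36E at the first step in both genotypes (1.63 in brat mutants and 2.15 in w1118) stand out; os comes from the fit over all genes.

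The 3 Stat92E transcripts had the same direction of difference at 3-4.5 h, and the 2 Socs36E transcripts had unequal differences at 4.5-6 h. For Stat92E, the transcripts PB, PC and PG had means of 13.52, 13.21 and 13.25 in brat mutants at 3-4.5 h, against 12.99, 12.80 and 12.58 in w1118, so that each was higher in brat mutants at this time. PB lay above PG by 0.09 to 0.45 in the group means and differed from PC by -0.05 to 0.33. For Socs36E, PA lay above PB by 1.23 to 1.95 in the group means and in every sample. PA was expressed from 1.5-3 h onward in both genotypes (11.46 ± 0.34 in brat mutants and 11.41 ± 0.20 in w1118 at 1.5-3 h), while PB was called expressed only in w1118 at 4.5-6 h (9.98 ± 0.06, against 9.96 ± 0.48 in brat mutants; SD, n = 3 each). At that time PA was 11.19 ± 0.39 in brat mutants and 11.93 ± 0.18 in w1118, a difference of -0.74 that did not pass in the fit of single transcripts (adjusted p = 0.0801). Transcripts of a gene can share probes, and their values are not independent.

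**Figure D4:**
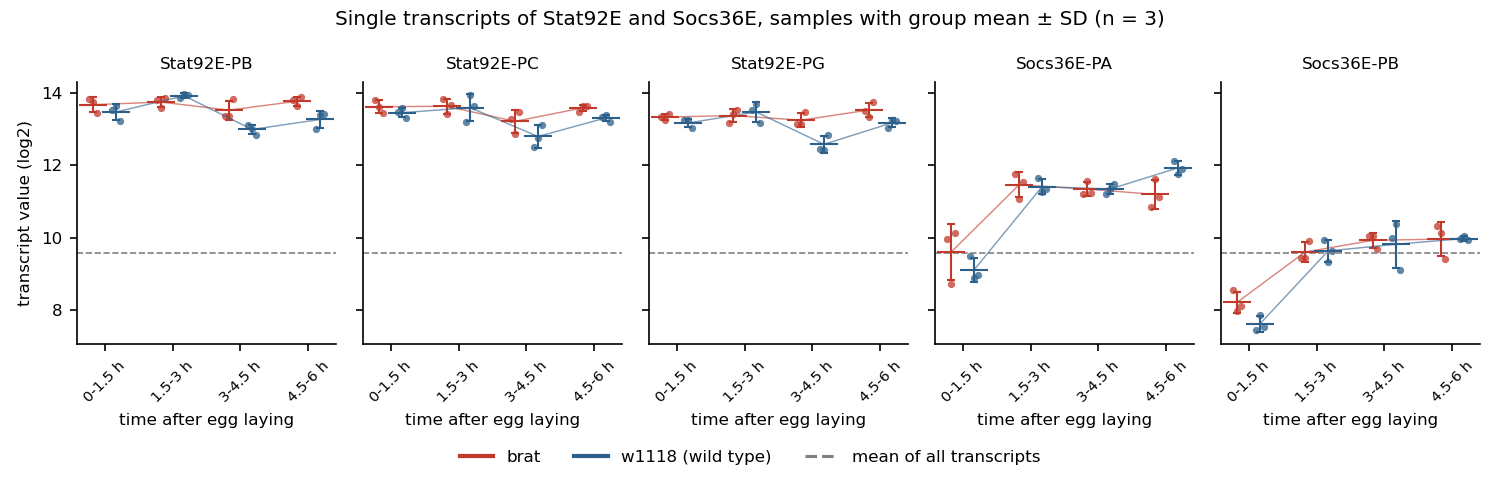
Values of the 3 Stat92E and 2 Socs36E transcripts (log2, y axis) against time after egg laying in brat mutants (red, left) and w1118 (blue, right), with samples as points and the group mean ± SD (n = 3). All 3 Stat92E transcripts have their lowest group mean in w1118 at 3-4.5 h, and Socs36E-PA lies above Socs36E-PB by 1.23 to 1.95.

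Levels of hop and Stat92E varied together over the samples. Their Pearson correlation over the 24 samples was 0.82, the highest of any pair of the 7 genes, and the next was 0.63 for upd2 and dome. Samples of a group share genotype and stage, so these values only describe the likeness of the profiles. Outside the pathway, the 2 genes with the profile most like each member were Dys (dystrophin, 0.90) and fbl (fumble, a pantothenate kinase, 0.87) for hop, CycK (cyclin K, 0.91) and CG12773 (0.90) for Stat92E, and ec and brk (0.96 each) for Socs36E, where brk encodes the repressor Brinker. For dome they were CG1244 (0.74) and CG17273 (0.68). For the ligands they were MED27 (a Mediator subunit, 0.83) and CG12420 (0.82) for os, dpn (the bHLH repressor Deadpan, 0.77) and Pepck (a gluconeogenesis enzyme, 0.74) for upd2, and Madm (0.65) and CG6782 (0.61) for upd3.

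The wider pathway was described from a list of 9 regulators, of which 8 were on the array and 5 were expressed (Ptp61F, ken, Socs16D, BRWD3 and Hrs). Socs16D, a second member of the SOCS family, was higher in brat mutants at 3-4.5 h and at 4.5-6 h, and the other 4 were not called at any time point (background 2.17% and 6.3% of expressed genes higher). At 3-4.5 h Socs16D had 9.68, 10.30 and 10.81 in brat mutants against 8.38, 8.92 and 8.56 in w1118, a difference of 1.64 (SE 0.31, adjusted p = 0.0313). Without any 1 of the 6 samples this call was lost (adjusted p between 0.0501 and 0.0989, difference 1.37 to 1.94), as it was with dye as a covariate (0.0751). At 4.5-6 h it had 10.64, 10.42 and 10.53 in brat mutants against 9.10, 9.73 and 9.38 in w1118, a difference of 1.13 (SE 0.20, adjusted p = 0.0111) that held without any 1 sample (adjusted p between 0.0113 and 0.0411). The medians of the 5 regulators were 0.01, -0.36, -0.06 and 0.10 at the 4 times.

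Like hop and Stat92E, Socs16D fell in w1118 from 1.5-3 h to 3-4.5 h, and it also fell in brat mutants. It fell by 1.10 in brat mutants (SE 0.27, adjusted p = 0.00879) and fell by 2.32 in w1118 (SE 0.27, adjusted p = 7.01e-07). The brat mutant call was lost without brat 3-4.5 h replicate 1 (adjusted p = 0.0587). Ptp61F, a protein tyrosine phosphatase that acts against the pathway, fell by 0.77 in w1118 at this step (adjusted p = 0.000357). Hrs, an endosomal sorting protein, fell by 1.08 in brat mutants and by 0.87 in w1118, and these calls were lost without brat 3-4.5 h replicate 2 (adjusted p = 0.054) and without w1118 3-4.5 h replicate 3 (adjusted p = 0.051). In a fit of only the 6 samples of the 2 groups, the brat mutant calls of Socs16D (adjusted p = 0.0728) and Hrs (0.0706) were lost.

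ken, a repressor that acts on a subset of STAT targets, fell at the first step in both genotypes, by 1.56 in brat mutants (adjusted p = 0.000219) and by 1.55 in w1118 (adjusted p = 0.00016), and at the last step in w1118 it fell by 1.96 (adjusted p = 0.000152). In brat mutants ken had 9.44 ± 0.14 at 4.5-6 h and 10.54 ± 0.16 at 3-4.5 h (SD, n = 3 each), without overlap, and this step of -1.10 did not pass (adjusted p = 0.0614). BRWD3, a WD40 protein that promotes signalling, rose by 0.51 in w1118 at the first step (adjusted p = 0.0311). That call was lost without w1118 0-1.5 h replicate 1 or 3 or w1118 1.5-3 h replicate 2 (highest adjusted p = 0.19), and in a fit of only the 6 samples compared (0.0718). et, a truncated receptor-like inhibitor whose gene lies next to dome on X with no protein-coding gene between, was not expressed and averaged 8.04 in brat mutants at 0-1.5 h.

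Of 10 genes known as targets of the pathway in flies, all were on the array and 6 were expressed (eve, Sxl, trh, chinmo, zfh1 and crb). At 0-1.5 h 1 was higher in brat mutants, at 1.5-3 h 1 was higher and 1 lower, at 3-4.5 h none was called, and at 4.5-6 h 1 was higher. The shares of all expressed genes called higher and lower were 4.97% and 3.94%, 4.15% and 3.55%, 2.17% and 1.48%, and 6.3% and 5.68% at these times. The called genes were eve, zfh1 and chinmo, which went in different directions. eve, a pair-rule segmentation gene, had 9.72, 10.05 and 10.15 in brat mutants at 1.5-3 h against 11.08, 10.70 and 11.12 in w1118, a difference of -1 (SE 0.21, adjusted p = 0.0266). The call was lost without 5 of the 6 samples in turn, all but w1118 replicate 2 (adjusted p of the lost calls between 0.0569 and 0.0794), and with dye as a covariate (0.0664) or without the expression filter (0.0501). The eve level in this comparison also belongs to the blastoderm marker list given above. All 5 genes of that list met the expression rule in w1118 at 1.5-3 h, against 3 in brat mutants. As eve was highest in this w1118 group, its genotype call and its w1118 steps there are not independent of the rule.

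zfh1, a zinc finger homeodomain gene of mesoderm and somatic stem cells, was the listed target that was higher in brat mutants early. It had 9.48, 10.10 and 10.48 in brat mutants at 1.5-3 h and 8.54, 8.44 and 8.93 in w1118, without overlap. The difference was 1.39 (SE 0.28, adjusted p = 0.0222), and the call was lost without 4 of the 6 samples in turn, brat replicates 2 and 3 and w1118 replicates 1 and 2 (highest adjusted p = 0.0794), and with dye as a covariate (0.0503). At 0-1.5 h the difference was 0.63 (adjusted p = 0.0418) and was lost without any 1 sample (adjusted p between 0.0552 and 0.139). It was also lost with all 24 samples in 1 fit (0.0759) and without the expression filter (0.124). The replicate block (0.077) and ribosomal protein scaling (0.0828) lost it too, and it held in the fit of single transcripts (0.0256). By 3-4.5 h w1118 had risen by 2.01 (adjusted p = 2.05e-07) to 10.65 ± 0.21, against 10.49 ± 0.19 in brat mutants (SD, n = 3 each). chinmo, a BTB zinc finger gene, had 9.48, 9.79 and 9.72 in brat mutants at 4.5-6 h against 8.57, 8.50 and 8.65 in w1118 (difference 1.09, SE 0.17, adjusted p = 0.00568). The muscle marker list was higher in brat mutants at 1.5-3 h and at 4.5-6 h (9.85 and 10.95, against 8.95 and 9.01 in w1118).

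Over time, more of the targets rose at the first step than at any later one in brat mutants. Of the 6, 4 rose in brat mutants between 0-1.5 h and 1.5-3 h (eve, Sxl, trh and chinmo) and 3 in w1118 (eve, Sxl and crb), and none fell, where 13.9% of expressed genes rose in brat mutants and 19.5% in w1118. eve rose by 1.49 in brat mutants (adjusted p = 0.000627) and by 2.75 in w1118 (adjusted p = 2.76e-07). Sxl, the sex determination switch, rose by 0.75 in brat mutants (adjusted p = 0.000493) and by 0.74 in w1118 (adjusted p = 0.000399). The w1118 call of Sxl was lost with ribosomal protein scaling (adjusted p = 0.0553). The other calls at this step were lost when samples were left out. chinmo (1.01 in brat mutants) was lost without brat 1.5-3 h replicate 3 (adjusted p = 0.1). crb (0.62 in w1118) was lost without w1118 0-1.5 h replicate 2 or 3 (highest adjusted p = 0.0982). trh (0.59 in brat mutants) was lost without 4 of the 6 samples in turn (highest adjusted p = 0.194). It was also lost in a fit of only the 6 samples compared (0.0627).

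At the later steps eve fell in both genotypes and trh, a tracheal transcription factor gene, rose. eve fell by 1.34 in brat mutants (adjusted p = 0.00592) and by 1.69 in w1118 (adjusted p = 0.00012) from 1.5-3 h to 3-4.5 h, and by a further 1.39 in w1118 at the last step (adjusted p = 0.00493). With only the 6 samples of the 2 groups in the fit, the eve calls at the second step in brat mutants (adjusted p = 0.062) and at the last step in w1118 (0.0555) were lost. trh rose by 0.74 in brat mutants (adjusted p = 0.0292) and by 0.63 in w1118 (adjusted p = 0.0235) at the second step, calls that were lost without 4 and 2 of the 6 samples in turn and in a fit of only the 6 samples compared (adjusted p = 0.0939 and 0.0889). At the last step trh rose by 1.77 in w1118 (adjusted p = 2.87e-05), which held without any 1 sample. Sxl rose by 0.46 in w1118 at the second step (adjusted p = 0.0171), lost without w1118 1.5-3 h replicate 2 or w1118 3-4.5 h replicate 1 (highest adjusted p = 0.0861), and in a fit of only the 6 samples compared (0.0773).

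**Figure D5:**
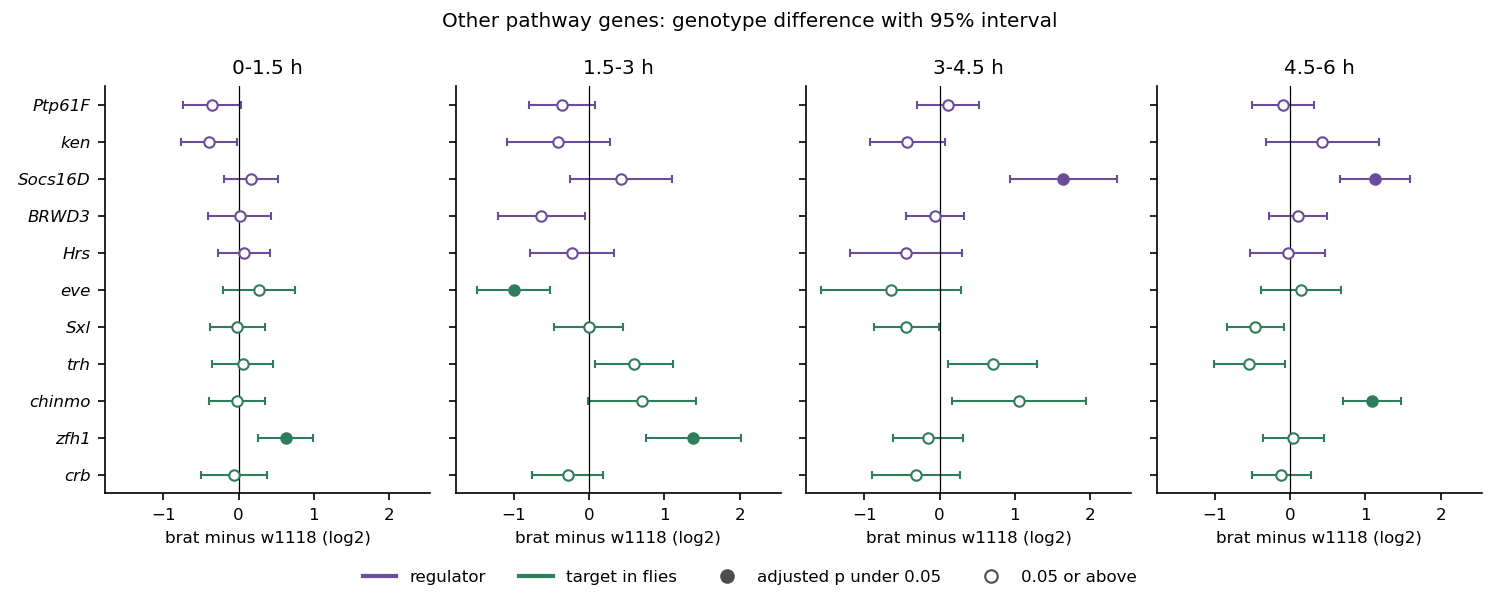
Difference brat minus w1118 (log2, x axis) with its 95% interval for 5 expressed regulators (purple) and 6 expressed target genes (green) at the 4 time points, with filled symbols where the adjusted p was under 0.05. The filled symbols are zfh1 at 0-1.5 h, eve and zfh1 at 1.5-3 h, Socs16D at 3-4.5 h, and Socs16D and chinmo at 4.5-6 h.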

How the data were processed

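The deposited table holds 1 log2 value per transcript and sample, which the authors made from NimbleGen scans by RMA with quantile normalization of all samples together in ArrayStar. Each array carried 1 Cy3 and 1 Cy5 sample. In brat mutants replicates 1 and 3 were Cy3 and replicate 2 Cy5, and in w1118 the reverse. The pairing of samples on arrays and the annotation release behind the array's symbols were not given in the sources used here. Gene IDs were moved by the authors to a later FlyBase release only after normalization. Of 17775 transcripts, 6 had no value and were left out. Arrays give no counts, so that the 3 replicates limit the precision.

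A transcript was expressed where it exceeded the sample mean in at least 1 group (one-sided limma within the group, FDR 5%). Genes with an expressed transcript were tested on the mean of all their transcripts with limma 3.58.1 in R 4.3.3, two-sided, with Benjamini-Hochberg adjustment over all 5811 such genes: brat minus w1118 in the 6 samples of each time point, and the time steps and their interactions in 1 fit of 24 samples. limma took the place of the methods' SAM because 3 samples against 3 allow only 20 label assignments (smallest exact permutation p of a single gene, 0.1). SAM pools the assignments over genes and could still call them. At 3-4.5 h it called 5.78% of expressed genes higher in brat mutants, against 2.17% with limma. The replicates were separate biological samples by the labels. SAM, other filters, fits of all 24 or only the 6 samples compared, dye, a replicate block, ribosomal protein scaling, single transcripts and leaving out each sample were alternatives. Scripts were tested on simulated data. Figures were drawn with matplotlib.

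The pathway genes and the lists of regulators, targets and markers were chosen with earlier results of these data known. Named genes were the 7 members, each listed gene that passed among expressed genes, and the 2 expressed genes most correlated with each member. In the fit over all genes, 3 listed genes that were not expressed also passed. run rose at the first step (1.31 in brat mutants, 1.09 in w1118). Socs44A changed by -1.16 at the first step in brat mutants and Stam by -1.03 at the second in w1118. Su(var)2-10, on the list of regulators, and promoter sequences were not analysed here. Symbols are those of the deposited table, and chromosomes and neighbours come from RefSeq by symbol or synonym.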

Additional observations from a re-analysis of the deposited data

Results flagged for a closer look

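The time step of zfh1 from 1.5-3 h to 3-4.5 h differed between the genotypes by a test of the difference itself. The step in brat mutants minus that in w1118 was -1.54 (SE 0.29, limma adjusted p = 0.00642), with 0.47 in brat mutants and 2.01 in w1118. The call held under each alternative that was run (adjusted p between 0.00574 and 0.0171) and without each sample (0.00146 to 0.0204). The muscle marker list moved by genotype at the same times (9.85 and 10.54 in brat mutants, 8.95 and 8.92 in w1118), and its part in the difference was not tested. No interaction of a pathway gene passed. Groups of 3 samples are too small to test for outlying samples.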

How the results depend on the processing

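The count of pathway genes higher in brat mutants at 3-4.5 h was 0, and it was 1 with SAM (hop) and 2 with all 24 samples in 1 fit (hop and Stat92E). In w1118 the count of risers at the first step was 1, and 2 without the expression filter (os added); at the last step, fallers were 0, and 1 without the filter (os), and risers were 0, and 1 with dye as a covariate and 1 with the replicate block (Stat92E, adjusted p = 0.0381 and 0.047). The replicate numbers are not taken to pair the samples: 2 of 12 same-numbered pairs had deviations correlated over 0.1 (range -0.086 to 0.175) and 4 of 12 samples matched best a sample of their own number. The replicate block changed no other count of pathway genes. Leaving out each sample moved the count of genes higher in brat mutants at 0-1.5 h between 0 and 1 and that of risers in w1118 at the first step between 1 and 2, and no other count.

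The median change of 81 ribosomal protein genes at the first step was 0.25 in brat mutants and 0.28 in w1118. At any other step it was at most 0.08 in size. Centring used the median of these genes in each sample, and its shifts were not equal to these values. In w1118, BRWD3 went from 0.51 to 0.18 at the first step and trh from 0.63 to 0.51 at the second. With centring, rises were 17.8% of the calls at the first step in brat mutants and 17.3% in w1118, beside 40% and 43.1%. At the last step in w1118 they were 69% beside 58.3%. Reversals were all of differences that passed no test. With this centring they were hop and Stat92E at the first step (-0.22 and -0.27 in brat mutants, -0.07 and -0.03 in w1118) and Socs36E at the second step in w1118 (-0.06). The listed genes BRWD3, chinmo, crb, Sxl, trh and zfh1 each lost at least 1 call under it. Without 1 sample the genotype differences of dome ranged from -0.56 to 0.11 at 0-1.5 h and from -0.29 to 0 at 3-4.5 h, that of Stat92E from -0.14 to 0.03 at 1.5-3 h, and those of Socs36E from -0.1 to 0.15 at 1.5-3 h and from -0.09 to 0.19 at 3-4.5 h. In brat mutants, the first step ranged from -0.01 to 0.16 for hop and from -0.01 to 0.1 for Stat92E, the second from -0.03 to 0.2 for Socs36E, and the last from -0.24 to 0.03 for dome and from -0.21 to 0.09 for Socs36E. In w1118, the second step ranged from -0.16 to 0.14 for dome and from -0.08 to 0.2 for Socs36E, and the last from -0.17 to 0.25 for dome. With dye as a covariate Socs16D at 3-4.5 h (adjusted p = 0.0751), eve (0.0664) and zfh1 (0.0503) at 1.5-3 h and zfh1 at 0-1.5 h (0.0835) no longer passed. Time steps fitted on only the 6 samples of the 2 groups changed no count of pathway genes, and 9 calls of listed genes no longer passed (BRWD3, eve, Hrs, Socs16D, Sxl and trh). The cause of these changes was not tested.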
